A study of Mus musculus with 12 samples.

Results

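The 8 genes described here, Xirp1, Xirp2, Flnc, Nrap, Ankrd1, Csrp3, Des and Cryab, encode proteins of the Z-disc and the intercalated disc of cardiomyocytes. They were picked by symbol from the 25239 genes of 2 count tables, for the lower levels of Xirp1 and Flnc in libraries labelled Chaf1a cko of the first table. All 8 had counts in both tables and passed the filter on low counts in both. Because the first table was used to pick them, its group differences are given below as a description of these libraries, without a test. The tests on the 8 genes are those of the second table, the 3M set, whose values the stated reason for the choice did not use. Earlier results of these data were known when the genes were chosen.

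RNA-seq was run on mouse heart cardiomyocytes in 12 libraries of 4 groups, 3 libraries each: Ctrl and Chaf1a cko in the first table, and the same pair of genotypes with the added label 3M in the second. Per the design text the knockout carries Myh6-Cre and floxed Chaf1a (Chaf1af/f), and the controls carry the floxed alleles without Cre, although the labels call the controls WT. Myh6-Cre is driven by a promoter of cardiomyocytes, so loss of Chaf1a and presence of Cre come together in the knockout groups and cannot be told apart. The labels give no ages, do not spell out 3M, describe the RNA source as cultured cells, and do not say whether the libraries come from different animals. The p-values therefore measure only how these libraries spread, and that spread may be technical. Chaf1a encodes the large subunit of CAF-1, a chaperone that deposits histones on newly copied DNA, and its own levels overlapped between the groups of each table. Chaf1a ranged from 18.8 to 32.3 CPM in Ctrl against 22.0 to 29.0 in Chaf1a cko, and from 1.88 to 9.75 against 5.54 to 8.34 in the 3M groups. Levels are given in CPM, counts divided by library size on the customary scale and adjusted between the libraries of a set by the TMM method. Directions below are thus those of libraries labelled Chaf1a cko.

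The Z-disc anchors the actin filaments of neighbouring sarcomeres, and the intercalated disc joins cardiomyocytes end to end where the last sarcomere meets the membrane. Xirp1 and Xirp2 encode Xin repeat proteins, which bind actin, and filamin C, the product of Flnc, is an actin crosslinker that binds Xin proteins and gathers with them at the disc and at sites of sarcomere damage. Nrap, a nebulin-related protein, links the last actin filaments to the membrane. Ankrd1 and Csrp3 (muscle LIM protein) move between sarcomere and nucleus and are widely used as reporters of stretch and load. Desmin, from Des, is the intermediate filament that ties Z-discs together, and alphaB-crystallin, from Cryab, is a small heat shock protein that protects desmin from aggregation.

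The promoters of the 3 members with the widest range between libraries of the 3M set, Flnc, Ankrd1 and Xirp2, are shown here. Of the 8 members 6 matched the RefSeq promoter table of GRCm38.p6, with 8 entries in all (Xirp1 and Cryab did not match). Each sequence runs 5′ to 3′ along the gene, from 250 bases before to 50 after the annotated start. They are chr6:29433006-29433305 on the plus strand for Flnc (the second of its 2 entries), chr19:36119795-36120094 on the minus strand for Ankrd1 and chr2:67445752-67446051 on the plus strand for Xirp2. Capitals mark a match on either strand to the TEAD-type MCAT motif CATTCC, the MEF2 site, the CArG box of serum response factor or the TATA motif TATAAA.
Flnc: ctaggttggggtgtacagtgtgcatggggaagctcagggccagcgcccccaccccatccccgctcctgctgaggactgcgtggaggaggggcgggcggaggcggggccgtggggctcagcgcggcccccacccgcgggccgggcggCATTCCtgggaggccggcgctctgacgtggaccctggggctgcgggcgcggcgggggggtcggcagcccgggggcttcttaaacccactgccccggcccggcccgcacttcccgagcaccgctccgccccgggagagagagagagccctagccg
Ankrd1: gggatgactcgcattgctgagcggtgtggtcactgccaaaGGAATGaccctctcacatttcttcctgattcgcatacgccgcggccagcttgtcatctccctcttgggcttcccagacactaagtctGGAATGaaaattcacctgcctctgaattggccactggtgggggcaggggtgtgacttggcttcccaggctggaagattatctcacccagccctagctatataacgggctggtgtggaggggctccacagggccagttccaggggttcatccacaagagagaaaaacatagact
Xirp2: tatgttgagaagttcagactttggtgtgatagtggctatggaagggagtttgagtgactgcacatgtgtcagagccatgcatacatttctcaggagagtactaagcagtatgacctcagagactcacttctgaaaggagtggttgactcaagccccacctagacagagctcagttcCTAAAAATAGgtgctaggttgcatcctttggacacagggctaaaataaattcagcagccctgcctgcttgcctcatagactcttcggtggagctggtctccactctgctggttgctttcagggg
The capitals in Flnc and Ankrd1 are MCAT matches, 1 in Flnc starting at base -104 and 2 on the opposite strand in Ankrd1 starting at bases -210 and -123. That motif stood in 14.7% of all 32851 promoters of this length. The capitals in Xirp2 are a MEF2 match starting at base -74, a motif held by 3.19% of these promoters. No entry of a member held the CArG box (1.63% of all promoters) or TATAAA (13.6%) as spelled here. E-boxes (CANNTG), which may overlap each other and are not capitalised, stood in 72.3% of all promoters and were found in the entries of Xirp2, Nrap, Ankrd1, Csrp3 and Des. A match is a description of letters and not a bound site.

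The genes lie on 6 chromosomes. In mm10, by GENCODE M21, Xirp1 (Entrez 22437) spans 120013755 to 120023598 on chromosome 9 and Xirp2 (241431) spans 67446002 to 67526614 on chromosome 2. Flnc (68794) spans 29433256 to 29461883 on chromosome 6. Nrap (18175) and Ankrd1 (107765) are both on chromosome 19, at 56320035 to 56390037 and 36111961 to 36120099. Csrp3 (13009) spans 48830398 to 48848033 on chromosome 7, Des (13346) spans 75360329 to 75368579 on chromosome 1 and Cryab (12955) spans 50751325 to 50756636 on chromosome 9. All are protein coding, with 1479 exonic bases in Cryab and 11979 in Xirp2 as the extremes. Xirp1 lies within the span annotated for Cx3cr1 on the same strand. Antisense genes overlap Xirp2 (Gm13601), Nrap (Habp2, Gm17197), Des (Gm15179) and Cryab (Hspb2), and since no source used here says whether counting used strand, their reads cannot be told from those of the members.

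The tables differed in depth and in spread. First-set totals ran from 15068468 to 20896673 counts per library, with counts in 24154 to 24495 genes. The 3M totals ran from 10569325 to 16445963, with counts in 14344 to 15240 genes. Over genes whose mean log2 CPM reached 5, the median coefficient of variation (SD over mean) was 6.75% in Ctrl, 6.36% in Chaf1a cko, and, for the 3M groups, 19.3% and 15.5%. Ctrl 3M replicate 1 stood farthest from the rest of its set, with a root mean square log2 difference of 0.852 from the other libraries against 0.658 to 0.730 for the others, and values without it are given beside the 3M results. All 18 cardiomyocyte markers had counts in both tables. The Y-linked genes Uty, Kdm5d, Eif2s3y and Ddx3y together had CPM of 50.05 to 61.1 in Ctrl and 115 to 133.99 in Chaf1a cko, so the sex mixture of the first-set groups and genotype cannot be told apart.

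In the first set Xirp1 and Flnc, the genes behind the choice, were lower in every Chaf1a cko library than in any Ctrl library, and Nrap, the other actin-to-membrane gene, was lower by less. Xirp1 measured 545, 508 and 527 CPM in the 3 control libraries (replicates 1 to 3, here and below) against 307, 344 and 324 CPM in the 3 labelled Chaf1a cko. The ranges stood far apart, at 527 ± 18.7 CPM for controls and 325 ± 18.7 CPM for knockouts (mean ± SD, n = 3 each), a log2 fold change of -0.70 (standard error, SE, 0.05), a fold of 0.617. Flnc measured 904, 881 and 859 CPM against 637, 656 and 635 CPM, a log2 fold change of -0.46 (SE 0.04). The 3 knockout libraries of Flnc lay close together and well below the lowest control. Nrap was at 493, 469 and 462 CPM against 445, 416 and 396 CPM, a log2 fold change of -0.18 (SE 0.05). Its groups did not overlap, but the gap between the lowest Ctrl and the highest Chaf1a cko library was smaller than the range within either group.

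Xirp2, the second Xin repeat gene, was at a lower level than Xirp1 in that table and spread more within each group. Its controls measured 38.5, 60.9 and 67.3 CPM and its knockout libraries 29.6, 43.6 and 49.0 CPM. Replicate 1 was the lowest library of each group, and the groups overlapped. The coefficient of variation of Xirp2 was 27.2% in Ctrl and 24.5% in Chaf1a cko, against 1.77% to 5.85% for Xirp1, Flnc and Nrap. Its log2 fold change was -0.45, as large as that of Flnc, with an SE of 0.27. The 95% interval ran from -1.12 to 0.22, which includes both 0 and the -0.70 of Xirp1. The fold change was -0.27 without Chaf1a cko replicate 1 and -0.29 without Ctrl replicate 3.

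Of the stretch reporters and the desmin pair, Csrp3 and Des were slightly higher in the first-set knockout libraries, while Ankrd1 and Cryab overlapped. Ankrd1 measured 386, 372 and 369 CPM in controls against 378, 403 and 369 CPM, so its groups overlapped (log2 fold change 0.03, SE 0.05, 95% interval -0.07 to 0.13). Csrp3 was at 325, 292 and 298 CPM against 362, 367 and 343 CPM (0.23, SE 0.05), and Des at 949, 896 and 892 CPM against 1007, 1007 and 971 CPM (0.13, SE 0.04). Both were higher in every Chaf1a cko library than in any Ctrl library, by small margins. Cryab was at 259, 241 and 234 CPM against 181, 233 and 252 CPM, with Chaf1a cko replicate 1 lowest and the groups overlapping (-0.14, SE 0.12, and -0.02 without that library). In all, the groups did not overlap in 5 of 8 genes, 3 lower and 2 higher, where 16.2% of the 22965 genes tested had groups that did not overlap, 7.85% lower and 8.33% higher. Nothing is read from that count, since the members were picked on this contrast.

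**Figure D1:**
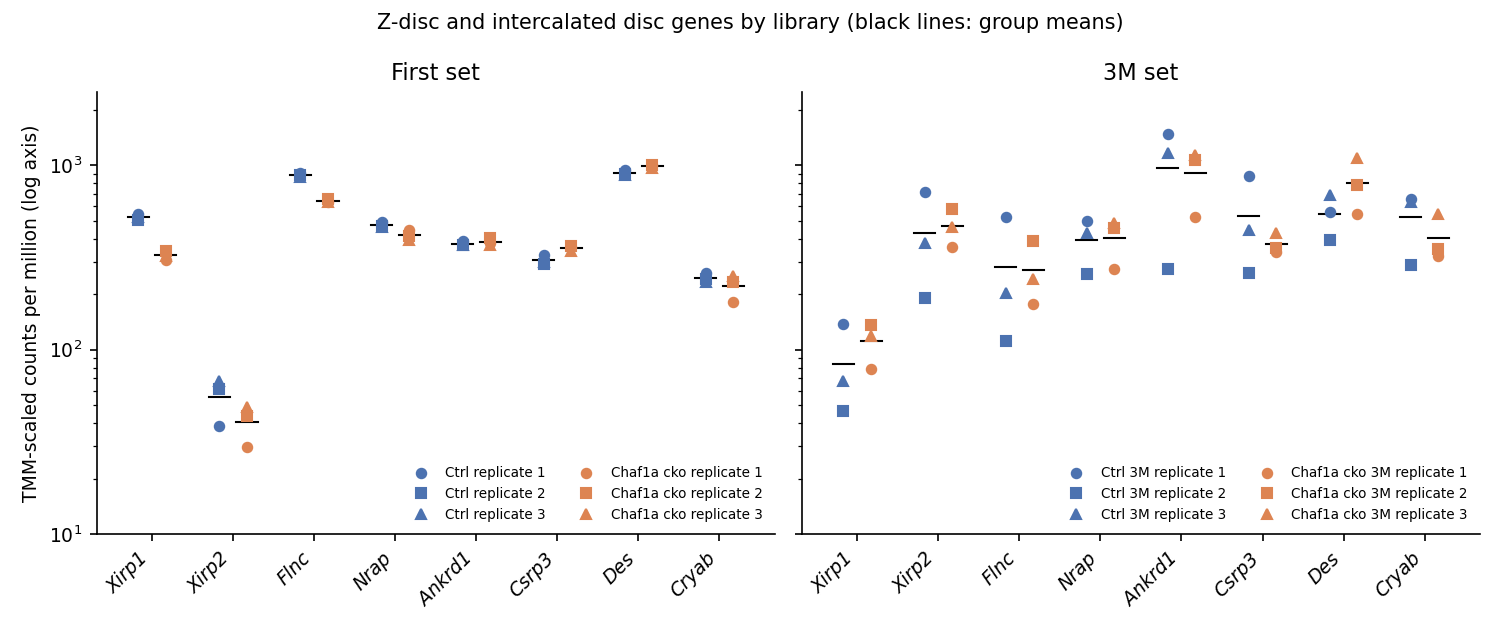
TMM-scaled CPM of each gene on a log axis, in the first set (left) and the 3M set (right), with Ctrl in blue, Chaf1a cko in orange, 1 symbol per replicate and black lines at the group means. In the first set the Xirp1 and Flnc groups are apart while Xirp2 spreads within each group; in the 3M set the groups of all 8 genes overlap and Ctrl 3M replicate 2 (blue square) is the lowest library for each gene.

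In the 3M set 0 of the 8 genes passed the test, and the groups of all 8 overlapped. Calls were rare in that set: edgeR's quasi-likelihood test called 2 of 13925 genes, 0.0144% (0.00718% in either single direction), at an adjusted p under 0.05. Groups did not overlap in 14.1% of genes, 7.21% higher and 6.89% lower. No member had an unadjusted p under 0.05 in edgeR, against 6.93% of all genes, and DESeq2's Wald test called 0 of the 8. Xirp1 measured 138, 46.5 and 67.4 CPM in the 3M controls against 78.4, 136.5 and 119 CPM in the 3M knockout libraries. The highest and the lowest library of Xirp1 were both controls. The fitted difference was 0.41 on the log2 scale, with an SE of 0.41 and a 95% interval of -0.55 to 1.37 (adjusted p 0.867 by edgeR). Flnc measured 527, 111 and 203 CPM against 177, 389 and 243 CPM, a log2 fold change of -0.06 (SE 0.61, 95% interval -1.53 to 1.42, adjusted p 0.990). Ctrl 3M replicate 1 was the highest library of Flnc and Ctrl 3M replicate 2 the lowest, with the 3 knockout libraries between them. Whether the effect differed from that of the first set was not tested, because the first-set values chose the genes.

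The other members spread in the 3M controls too, with a coefficient of variation from 27.2% for Des to 64.2% for Ankrd1. For Des the knockout group was the wider, at 34.3%. Xirp2 measured 721, 190 and 377 CPM in controls against 361, 580 and 466 CPM (log2 fold change 0.13, SE 0.46, adjusted p 0.971 in edgeR). Ankrd1 was at 1471, 273 and 1171 CPM against 522, 1075 and 1143 CPM (log2 fold change -0.09, SE 0.64, adjusted p 0.988). Csrp3 was at 880, 262 and 446 CPM against 340, 355 and 428 CPM (-0.50, SE 0.41, adjusted p 0.837). In each of these 3 genes the knockout libraries lay inside the range of the controls. Des was at 558, 392 and 689 CPM against 543, 779 and 1093 CPM, the largest positive value of the 8 (0.56, SE 0.30, 95% interval -0.12 to 1.24, adjusted p 0.755). Cryab, its chaperone, was at 656, 289 and 635 CPM against 323, 351 and 544 CPM (-0.38, SE 0.34, adjusted p 0.857). Nrap measured 500, 258 and 431 CPM against 275, 455 and 485 CPM (0.03, SE 0.30, adjusted p 0.990).

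Single libraries of either group set the sign of several of these values. Ctrl 3M replicate 1 was the highest library for 7 of the 8 genes, all but Des, and Ctrl 3M replicate 2 was the lowest for 8 of 8. Without Ctrl 3M replicate 1 the log2 fold change was 0.96 for Xirp1, 0.72 for Xirp2, 0.78 for Flnc, 0.23 for Nrap, 0.34 for Ankrd1, 0.08 for Csrp3, 0.57 for Des and -0.19 for Cryab. Without Ctrl 3M replicate 2 it was 0.12 for Xirp1, -0.22 for Xirp2, -0.43 for Flnc, -0.20 for Nrap, -0.53 for Ankrd1, -0.82 for Csrp3, 0.37 for Des and -0.67 for Cryab. No member passed the test without either library. All 8 values were higher without replicate 1 of Ctrl 3M than with it, and all 8 were lower without replicate 2. Signs also turned without other single libraries. Without Ctrl 3M replicate 3 Ankrd1 was at 0.07. Without Chaf1a cko 3M replicate 1 Flnc was at 0.18 and Ankrd1 at 0.19, without replicate 2 Xirp2 was at -0.06 and Nrap at -0.06, and without replicate 3 Flnc was at 0.02 and Nrap at -0.12.

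**Figure D2:**
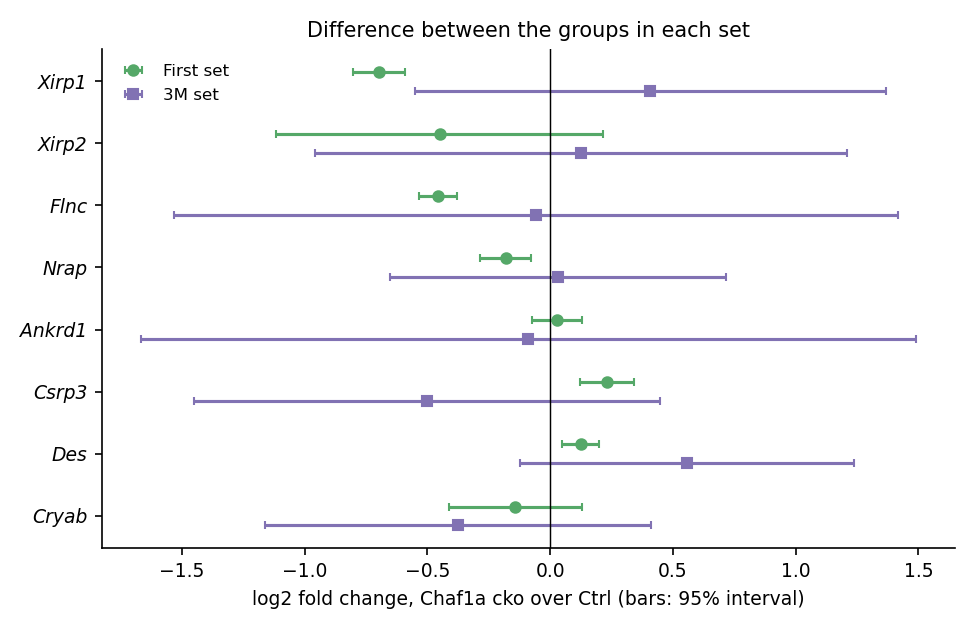
Log2 fold change of Chaf1a cko over Ctrl for each gene (points) with its 95% interval from edgeR (bars), first set in green and 3M set in purple. The first-set values run from -0.70 for Xirp1 to 0.23 for Csrp3 and the 3M values from -0.50 for Csrp3 to 0.56 for Des, and each 3M interval crosses 0, while the first-set intervals are a description, since that contrast chose the genes.

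Across the 6 libraries of the 3M set the Xin genes and Flnc followed each other closely. Likeness was measured as the root mean square difference between log2 CPM profiles, each centred on its own mean, over 6143 genes that reached a mean log2 CPM of 5. The gene nearest to Xirp1 was Xirp2, at 0.187, in a profile of Xirp1 whose range was 1.55. The gene nearest to Flnc was also Xirp2, at 0.202 with a Flnc range of 2.23, and Xirp1 was the fifth nearest, at 0.300. The further near genes of Xirp1 were Angptl4, a secreted inhibitor of lipoprotein lipase (0.198), Dsp, which encodes desmoplakin of the desmosome (0.205), Gpatch4 (0.227) and Syk (0.230). Those of Flnc were Resf1 (0.244), Angptl4 (0.261) and Mospd2 (0.296). These 6 points share 1 table and its scaling, and the order is a description of them.

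The likeness thinned out along the list of members. From Flnc, Csrp3 ranked 31, Ankrd1 40, Nrap 52, Cryab 514 and Des 1286 among the 6143 genes. From Xirp1, Nrap ranked 29, Des 238, Csrp3 396, Ankrd1 764 and Cryab 1594. The plot of centred values shows where the profiles part: Ctrl 3M replicate 1 was above the mean for 7 genes and below it for Des. In the first set, where the profile is mostly the group contrast, the nearest of 5197 genes to Xirp1 were Dcn (0.071), the atrial light chains Myl7 (0.091) and Myl4 (0.092), and the stress transcription factors Atf3 (0.094) and Egr1 (0.113), with Flnc at rank 11. Nearest to Flnc there were Pcdh19 (0.046), Lmod2, which encodes leiomodin of the thin filament (0.048), Ech1 (0.051), Pdzd2 (0.053) and Egr1 (0.053). Xirp2 ranked 1568 from Xirp1 and 4309 from Flnc in that table, so the pair of Xin genes lay close in 1 set and far apart in the other.

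**Figure D3:**
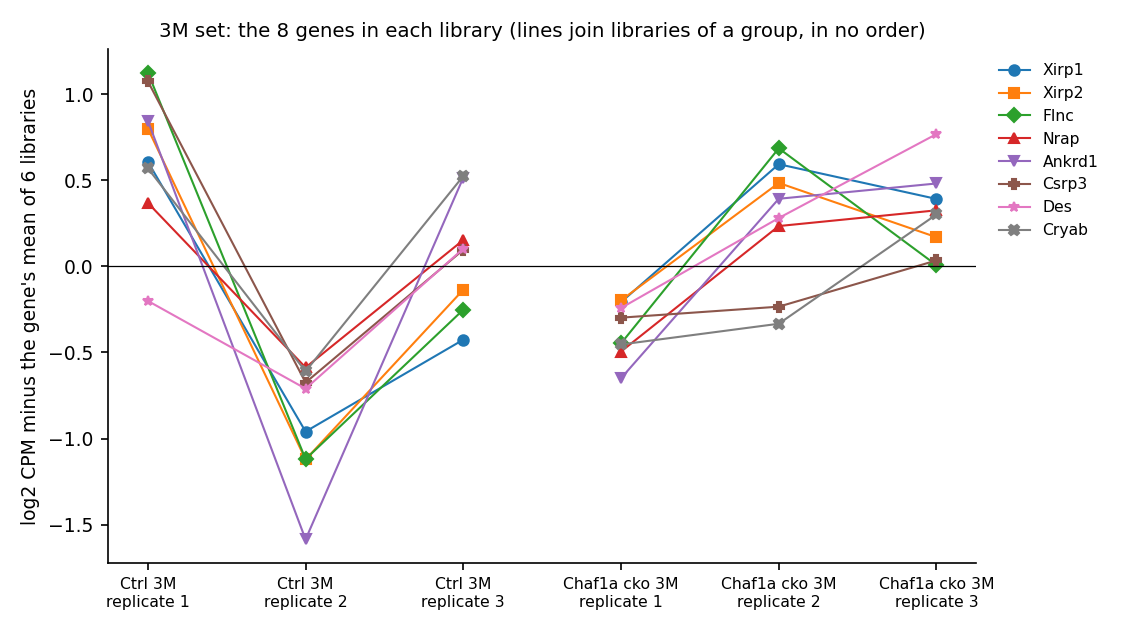
Log2 CPM of each gene minus its mean over the 6 libraries of the 3M set (vertical axis), by library (horizontal axis), 1 colour and symbol per gene, with lines joining libraries of a group in no order. Ctrl 3M replicate 2 is below the mean for 8 of 8 genes, and Xirp1, Xirp2 and Flnc run close together.

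Per kilobase of exon, the balance of the 2 Xin genes differed between the tables by far more than between the groups. The ratio of Xirp1 to Xirp2 was 29.0, 17.1 and 16.0 in the first-set controls against 21.2, 16.2 and 13.6 in the knockout libraries. It was 0.392, 0.502 and 0.367 in the 3M controls against 0.445, 0.483 and 0.523 in the 3M knockout libraries. Xirp1 was thus the more abundant of the pair in 6 of 6 libraries of the first set and Xirp2 in 6 of 6 of the 3M set, while the groups within each set overlapped. A ratio within a library needs no scaling, but how each table was counted is not known here, and that and whatever else differs between the sets cannot be told apart. No test was made between the tables.

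The order of levels per kilobase also differed. In the first set the medians over 6 libraries were 256 CPM per kb for Des, 161 for Cryab, 130 for Ankrd1, 125 for Csrp3, 82.3 for Nrap, 80.6 for Flnc, 72.9 for Xirp1 and 3.86 for Xirp2. Des was above Cryab in 6 of 6 libraries and Xirp2 was below Xirp1 in 6 of 6, with ranges that did not overlap. Cryab, Ankrd1 and Csrp3 overlapped as neighbours, so their order is not settled beyond the spread. Nrap was above Flnc in 3 of 6 libraries, those labelled Chaf1a cko, and below it in the controls. The ratio of Flnc to Nrap was 1.07 to 1.10 in Ctrl and 0.839 to 0.940 in Chaf1a cko, a description of the contrast that chose the genes. Over the 3M libraries the medians were 384 CPM per kb for Ankrd1, 303 for Cryab, 166 for Des, 147 for Csrp3, 80.4 for Nrap, 35.2 for Xirp2, 23.7 for Flnc and 16.9 for Xirp1. Nrap, Xirp2, Flnc and Xirp1 kept this order in 6 of 6 libraries although their ranges overlapped, and Ankrd1 was above Cryab in 3 of 6.

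Ratios between members within a library separated the 3M groups in some pairs. Of the 28 pairs, the ratio did not overlap between Ctrl 3M and Chaf1a cko 3M in 6, or 21.4% of pairs. These were Xirp1 and Xirp2 over Csrp3, Xirp1 over Cryab and Des over Cryab, which were higher in Chaf1a cko 3M, and Nrap and Csrp3 over Des, which were lower. Each had an exact two-sided permutation p of 0.1, the smallest that 3 against 3 libraries allow, and a Benjamini-Hochberg value of 0.467 over the 28 pairs, so the 6 did not pass. Cryab over Des, singled out after its values were seen, per kb was 2.98, 1.87 and 2.34 in the 3M controls against 1.51, 1.14 and 1.26. In the first set, used to pick the genes, it was 0.694, 0.684 and 0.666 against 0.456, 0.588 and 0.658. The small heat shock gene was thus lower relative to desmin in each knockout library than in each control of the same set. In the first set the margin was small, 0.658 against 0.666, and Chaf1a cko replicate 1 was far the lowest at 0.456. In the first set 18 of 28 pairs (64.3%) did not overlap, and 2 pairs were apart in the same direction in both sets and 3 in opposite directions. The 2 were Des with Cryab and Nrap with Des. The 3 were Xirp1 with Csrp3, Xirp1 with Cryab and Csrp3 with Des. The share over pairs of other genes was not computed, and the pairs reuse the same members. Nothing about the members is therefore read from these counts of pairs.

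**Figure D4:**
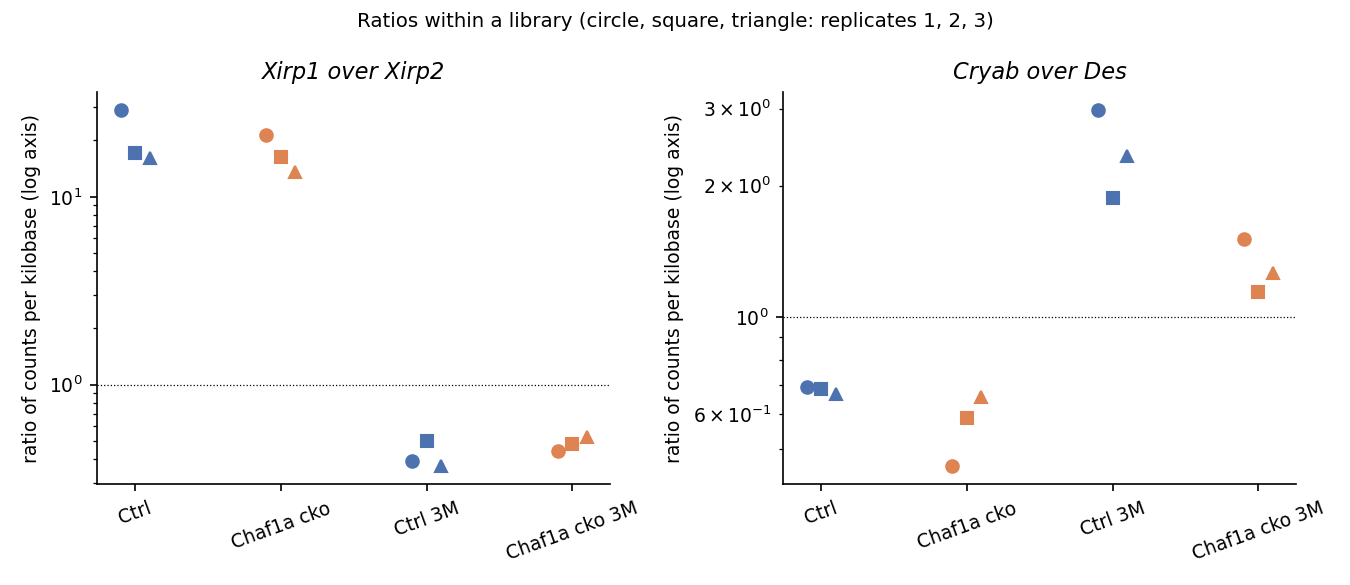
Ratio of counts per kilobase within each library (log axes) of Xirp1 over Xirp2 (left) and Cryab over Des (right), by group, with circles, squares and triangles for replicates 1 to 3 and a dotted line at a ratio of 1. Xirp1 over Xirp2 is above 13 in every library of the first set and below 0.6 in every library of the 3M set. Cryab over Des is lower in Chaf1a cko than in Ctrl within each set, in the first set by a small margin (0.658 against 0.666).

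Of 44 other Z-disc genes in the first set, 2 rose, 1 fell and 41 did not pass in edgeR, where 1.18% of all genes tested were called (0.74% higher, 0.435% lower). An unadjusted p under 0.05 was found for 17 of the 44, against 10.1% of all genes, and the groups did not overlap for 7 higher and 7 lower. The median log2 fold change of the list was 0.01 against -0.01 for all genes. Myoz2, a calcineurin-binding Z-disc protein, rose from 117 ± 3.67 to 160 ± 5.10 CPM (0.46, SE 0.06, adjusted p 0.000488). Csrp1, a LIM protein related to Csrp3, rose by 0.37 (SE 0.08, adjusted p 0.0214), and Plec, which encodes the crosslinker plectin, fell by 0.13 on the log2 scale (SE 0.03, adjusted p 0.0330). Fewer passed with 1 library left out: 1 Z-disc gene was called without Ctrl replicate 1, Ctrl replicate 3, Chaf1a cko replicate 1 or Chaf1a cko replicate 3. Calls over all genes also fell, from 270 to between 128 and 201 without 1 library. For the 3M libraries 0 of 42 tested Z-disc genes were called by edgeR and 4 had an unadjusted p under 0.05. DESeq2's Wald test called 1 of the 42. Tcap and Fhl2, abundant Z-disc adaptor genes, had log2 fold changes of -0.34 (SE 0.23) and -0.27 (SE 0.22).

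Of 28 intercalated disc genes 1 rose and 0 fell in the first set, where 1.18% of all genes were called. An unadjusted p under 0.05 was found for 6, against 10.1% of all genes. The gene that rose was Dsp, with means of 2069 ± 23.5 and 2318 ± 13.03 CPM and a log2 fold change of 0.16 (SE 0.02, adjusted p 0.00131 in edgeR). Dsp, which ran close to Xirp1 in the 3M set, measured 183 ± 63.7 and 268 ± 54.95 CPM there (0.55, SE 0.28, adjusted p 0.742). Ctnna1, a catenin, and Gja1, the gap junction gene, did not pass in the first set (-0.03, SE 0.03, and 0.09, SE 0.05). Among the 3M libraries 0 of 28 were called by edgeR, with 2 at an unadjusted p under 0.05, and DESeq2 called 1, Tjp1, a scaffold of cell junctions. Tjp1 measured 692 ± 213 CPM in Ctrl 3M against 314 ± 54.2 CPM in Chaf1a cko 3M (-1.14, adjusted p 0.554 in edgeR and 0.0277 in DESeq2). The list had a median log2 fold change of 0.06 in the first and 0.07 in the 3M libraries, against -0.01 and -0.02 for all genes.

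Of 20 costamere genes, which tie the Z-disc to the membrane and matrix, Itgb1, an integrin, rose by 0.17 (SE 0.04, adjusted p 0.0355 in edgeR) and Lama2, a laminin chain, fell by 0.27 on the log2 scale (SE 0.06, adjusted p 0.0218) in the first set. In all 9 of the 20 had an unadjusted p under 0.05 there, against 10.1% of all genes, and 1.18% of all genes were called. Without Ctrl replicate 2, Ctrl replicate 3 or any 1 of the 3 Chaf1a cko libraries 0 costamere genes were called, and without Ctrl replicate 1 there was 1. Over all genes 128 to 201 were called without 1 library, against 270 with none left out. Among the 3M libraries 0 of 20 were called by edgeR or DESeq2 and 0 had an unadjusted p under 0.05. Of 16 small heat shock and filamin turnover genes, the partners of Cryab and Flnc, 0 were called in the first set (4 at an unadjusted p under 0.05, 0 in DESeq2). The 3M set had 0 of 15 called (0 at an unadjusted p under 0.05, 0 in DESeq2). Their most abundant members were Hspa8 (0.04, SE 0.03, in the first set), Hspb7 (-0.08, SE 0.04) and Sqstm1 (-0.12, SE 0.05). Of 17 paralogs of the members, 2 rose in the first set and 0 fell, with 5 at an unadjusted p under 0.05. These were Vim, the intermediate filament gene of non-muscle cells, from 2050 ± 58.4 to 2398 ± 16.8 CPM (0.23, SE 0.03, adjusted p 9.8e-05), and Csrp1. Flna, the ubiquitous filamin, was at 456 ± 16.6 and 454 ± 1.27 CPM in the same libraries in which Flnc was lower (-0.01, SE 0.04). Of the 3M set 0 of 16 paralogs were called by edgeR or DESeq2, with 2 at an unadjusted p under 0.05, and Vim measured 1448 ± 94.0 and 1051 ± 225 CPM (-0.46, SE 0.20).

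Load and serum response genes moved beside Xirp1 and Flnc in the first set in both directions. Of 23 tested targets of SRF and its MRTF cofactors, 3 rose and 5 fell, including the smooth muscle actin gene Acta2 (0.55, SE 0.04), Egr1 (-0.51, SE 0.05), Ccn1, a matricellular protein (-0.54, SE 0.05), and Fos (-0.41, SE 0.04). Of 14 YAP targets other than Ankrd1, 0 rose and 3 fell, namely Ccn1, Amotl2 (-0.31, SE 0.04) and Ccn2 (-0.26, SE 0.06), while Ankrd1 itself was at 0.03. Of 20 stress and remodelling genes 3 rose and 2 fell, with Nppa, which encodes atrial natriuretic peptide, at 0.59 (SE 0.04), Myh7, the slow myosin heavy chain, at 0.21 (SE 0.02), Mt1 at 0.58 (SE 0.13) and Atf3 at -0.57 (SE 0.06). Among 26 immediate early genes, which also answer to dissociation, 0 rose and 7 fell, and their summed level was 5257 to 5478 CPM in Ctrl and 4442 to 4505 CPM in Chaf1a cko. The counts at an unadjusted p under 0.05 in these 4 lists were 11, 5, 8 and 15. Of all genes 10.1% had such a p, and 1.18% were called. The part of these genes in the lower Xirp1 and Flnc was not tested. For the 3M set edgeR called 0 genes in each of these 4 lists, of 23, 13, 18 and 25 tested (2, 0, 1 and 2 at an unadjusted p under 0.05). DESeq2 called Fos (-1.91, adjusted p 0.0293) and Egr3 (-2.61, adjusted p 0.0277) there.

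In RNA from many cells, fewer cells of a type and less RNA per cell cannot be told apart, and marker levels are therefore given beside the members. The summed level of the 18 cardiomyocyte markers was 104357 to 108376 CPM in Ctrl and 98801 to 99593 CPM in Chaf1a cko, a lower level in each knockout library. Single markers went both ways: 2 rose and 5 fell in edgeR, where 1.18% of all genes were called. Groups did not overlap for 6 higher and 5 lower, against 16.2% of all genes in either direction. The median log2 fold change of the list was 0.01, and the most abundant markers, Myh6 and Ttn, were among those that fell. Across the 3M libraries the summed level was 37305 to 46601 CPM in Ctrl 3M and 53554 to 58471 CPM in Chaf1a cko 3M, a higher level in each knockout library. Of the 18 markers edgeR called 0 there, and 5 had an unadjusted p under 0.05, against 6.93% of all genes. With libraries scaled to the summed counts of these markers, a setting added after the data were seen, the first-set log2 fold change was -0.60 for Xirp1 and -0.36 for Flnc. With that scaling the 3M median of all genes moved from -0.02 to -0.47. Xirp1 was at -0.07, Xirp2 at -0.35, Nrap at -0.41 and Des at 0.14. Flnc was at -0.55, Ankrd1 at -0.53, Csrp3 at -0.98 and Cryab at -0.81. Xirp1, Xirp2, Nrap and Des were above that median, Flnc, Ankrd1, Csrp3 and Cryab were below it, and 0 of 8 passed. The 18 skeletal muscle markers summed to 149 to 152 CPM in Ctrl and 129 to 149 in Chaf1a cko. They summed to 52.0 to 68.2 CPM in Ctrl 3M and 14.2 to 37.5 in Chaf1a cko 3M, and Myod1, Myog, Pax7, Myf5, Myf6 and Myh1 were at 0 in all 6 libraries of that set.

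Some markers of non-muscle cells also differed between the groups, in both directions. Of 20 fibroblast markers 2 rose and 5 fell in the first set, where 1.18% of all genes were called. Among those that fell were Col1a1 (-0.39, SE 0.03) and Dcn (-0.65, SE 0.08), the gene nearest to Xirp1 there. Vim was 1 of the 2 that rose (0.23, SE 0.03). The list summed to 7376 to 7632 CPM in Ctrl and 7348 to 7378 in Chaf1a cko, so the sums overlapped. Of 14 smooth muscle and mural markers 2 rose and 2 fell, with sums of 1558 to 1645 and 1836 to 1878 CPM. Of 15 macrophage markers edgeR called 0 in the first set. In the 3M set edgeR called 0 of 20 fibroblast and 0 of 14 smooth muscle and mural markers, with 4 and 1 at an unadjusted p under 0.05. As for macrophage markers in the 3M libraries, 0 of 15 were called by edgeR, 6 had an unadjusted p under 0.05 (6.93% of all genes did), and DESeq2 called C1qa. Their sums were 524 to 654 CPM in Ctrl 3M and 340 to 425 CPM in Chaf1a cko 3M. No marker of these 3 lists was at 0 throughout either table, and their part in the values of the 8 genes was not tested.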

How the data were processed

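The 8 members and the gene lists were chosen with earlier results of these data known. The authors deposited raw gene counts in 2 tables of 6 libraries each, 1 column per library. Per the submitters' processing notes, HISAT2 alignment to mm10 followed read checks (FastQC) and trimming (Trimmomatic). The sources used here do not name the counter, its annotation or a strand setting. Column names were matched to sample titles.

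Each table was fitted alone on all genes in R 4.3.3 with edgeR 4.0.16: filterByExpr (minimum count 10, minimum total 15), TMM scaling, robust glmQLFit and a two-sided glmQLFTest of Chaf1a cko against Ctrl, with Benjamini-Hochberg adjustment over all genes tested and a threshold of 0.05. This fit also gave log2 fold changes, SEs and 95% intervals, with 3 libraries per group. The fit was tested on simulated data. Exon lengths and positions are those of GENCODE M21, and promoters those of RefSeq on GRCm38.p6. Profile likeness used log2(CPM + 1).

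The genes named were the 8 members, Chaf1a, up to 4 called genes with the smallest p in each list (or up to 3 of the most abundant where fewer than 2 were called) and the 5 genes of most like pattern to Xirp1 and Flnc. Genes called by DESeq2 alone were named after their values were seen. An item among the Z-disc genes is not reported here. The other cell type lists were endothelial, erythroid and blood, and sex-linked genes. The first 2 of these had 0 calls in edgeR in either set, with 4 and 2 at an unadjusted p under 0.05 in the first set and 1 and 1 in the 3M set (DESeq2 called 1 gene of each in the first set). Of 5 sex-linked genes 4 rose in the first set and 0 of 4 were called in the 3M set, with 1 at an unadjusted p under 0.05 and 1 called by DESeq2. Other settings tried were the Wald test of DESeq2 1.42.0, its size factors in edgeR, unadjusted library sizes, 2 other filters, a replicate block, leaving out each library, and scaling to cardiomyocyte markers, the last added after the data were seen.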

Additional observations from a re-analysis of the deposited data

How the results depend on the processing

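In the 3M set 0 members were called under all 13 alternatives. Signs there turned for several members: with the replicate block for Flnc (0.17) and Ankrd1 (0.13), and with scaling to cardiomyocyte markers for Xirp1 (-0.072), Xirp2 (-0.35) and Nrap (-0.41), where the median of all genes moved to -0.47 by construction. Leaving out 1 library gave -0.22 to 0.72 for Xirp2, -0.43 to 0.78 for Flnc, -0.20 to 0.25 for Nrap, -0.53 to 0.34 for Ankrd1 and -0.82 to 0.078 for Csrp3. In the first set Ankrd1 turned from 0.03 to -0.0091 without Chaf1a cko replicate 2, and the other 7 members kept their sign under the alternatives run. Their ranges there were -0.74 to -0.60 for Xirp1, -0.65 to -0.27 for Xirp2, -0.48 to -0.36 for Flnc, -0.23 to -0.09 for Nrap, 0.20 to 0.32 for Csrp3, 0.10 to 0.22 for Des and -0.24 to -0.02 for Cryab. Called other Z-disc genes in the first set numbered 1 with the replicate block, 6 with marker scaling and 1 to 3 without 1 library. Called intercalated disc genes numbered 6 with marker scaling. Called costamere genes numbered 1 with library size alone, 1 with the replicate block, 4 with marker scaling and 0 to 1 without 1 library. DESeq2's Wald test called 1 Z-disc gene and 1 intercalated disc gene in the 3M set. The causes were not tested.

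Whether the replicate numbers pair the libraries is not settled here. The correlations of same-numbered libraries' deviations from their group means were -0.032, 0.0105 and 0.0126 over 5261 genes of the first set. They were 0.0747, 0.116 and 0.0405 over 6249 genes of the 3M set. With the block, 192 genes of the first set and 0 of the 3M set were called, against 270 and 2 without it. Each of the 3M controls correlated best with the knockout library of its own number, as a hint from the data and not the design. The 3M intervals, about 1 to 3 log2 units wide, limit what can be seen there.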
